A study of Homo sapiens with 24 samples.

Results

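In RCC4+VHL libraries pooled over 4 treatment groups, the RNA of 67 genes differed between low and high replicate numbers, led by *RGS5*, *VCAM1* and *MMP1*, while no gene passed that test within a single group. The count of 67 takes the 24 libraries as independent. With the 6 numbers as the units, 3 against 3, the count was 0. The comparison used all 24 libraries of the 24 in the series: within each of 4 groups, the low-numbered replicates (1 to 3) were set against the high-numbered ones (4 to 6), 12 libraries against 12, and the level of each gene was also followed over the 6 numbers. RCC4+VHL is a renal carcinoma line, a clone to which the von Hippel-Lindau tumour suppressor (VHL) had been returned by stable transfection, and all groups share it. The groups, of 6 replicates each and all treated for 6 h, were normoxia + DMSO (21% oxygen and 0.1% DMSO, the solvent control), normoxia + ITE (21% oxygen and 100 nM ITE, a ligand of the aryl hydrocarbon receptor), hypoxia + DMSO (0.5% oxygen) and hypoxia + ITE (0.5% oxygen with the ligand). The methods call the replicates independent, and neither they nor the labels say what a number marks, be it a day, a passage or an order, so a number is used here only as a label that the groups share.

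Cultured cell lines hold a state that depends on more than the treatment given. Cells of the kidney tubule carry transporters, junction proteins and cadherins that lines derived from them keep only in part, and adhesion, matrix and cytokine genes vary with density, serum and time in culture. *RGS5*, the gene at the head of the list, is known from cells of the vessel wall, and *NUPR1* from the response to cellular stress. Replicates have no order of their own, so a slope on the number is used only as a description of values that lie along it.

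Of 23106 gene symbols counted, 11666 had 10 or more counts in 12 or more libraries and were tested. Total counts ran from 770094 to 93851342, with medians of 7725175.5 in the low-numbered and 9634022.5 in the high-numbered libraries, and 6 measures of the libraries (total count, genes with a count, normalisation factor, share of the 10 highest genes, and the rank correlations of a library's deviations with GC content and with transcript length) did not differ detectably between low and high numbers (permutation test within groups, 100000 draws, two-sided, smallest adjusted p = 0.976). The library hypoxia + ITE replicate 6 stood apart: its normalisation factor of 0.732 was the lowest of all, and its deviations correlated with GC content at 0.662, against -0.456 to -0.239 in the other 5 libraries of its group. Hypoxia + DMSO replicate 2 and hypoxia + ITE replicate 1 held 770094 and 1357702 counts, so that 3 counts there equal 4.12 and 2.23 CPM (parts per 1e6 of the scaled library total), against at most 0.723 elsewhere. Leading counts are therefore also given without these libraries. Markers of a kidney-derived line ranged widely, with a median CPM of 237 for *PAX8*, 643 for *KRT8*, 1.43 for *LHX1* and 0 for *CA12*. Of endothelial markers, *PECAM1* and *CDH5* had a median of 0 and *ESAM* one of 1.52. Of leukocyte markers, *PTPRC* had a median of 0 and *CD68* one of 10.9.

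RGS5, VCAM1 and MMP1 carried the clearest differences. *RGS5* encodes a regulator of G-protein signalling best known from pericytes (GRCh37 chromosome 1, 163080911 to 163291581, minus strand), *VCAM1* a cytokine-inducible adhesion molecule (chromosome 1, 101185298 to 101204601, plus strand) and *MMP1* interstitial collagenase (chromosome 11, 102660132 to 102668891, minus strand). From number 1 to number 6, *RGS5* stood at 40.1, 36.6, 17.7, 16.9, 5.23 and 2.86 CPM in normoxia + DMSO, and at 48.5, 37.1, 16.1, 9.57, 7.12 and 6.79 CPM in normoxia + ITE. In hypoxia + DMSO it stood at 72.2, 42.6, 20.4, 14.5, 5.84 and 6.16 CPM, and in hypoxia + ITE at 57.3, 34.5, 12.8, 15.9, 5.61 and 4.34 CPM. Each group had its highest value at number 1 and its lowest at number 5 or 6, and low and high numbers did not overlap in 3 of the 4 groups. Over all 24 libraries the mean fell from 36.3 ± 17.8 CPM (SD, n = 12) to 8.40 ± 4.74 CPM (SD, n = 12), a log2 fold change of -2.03 (SE 0.297, edgeR quasi-likelihood adjusted p = 0.000576), and the slope was -0.72 log2 per number (SE 0.0445, edgeR adjusted p = 2.23e-11). Both p-values take the 24 libraries as independent. With the means per number as the units, *RGS5* did not pass between low and high numbers (limma adjusted p = 0.0857). Its slope over the 6 means did (limma adjusted p = 8.33e-07).

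**Figure D1:**
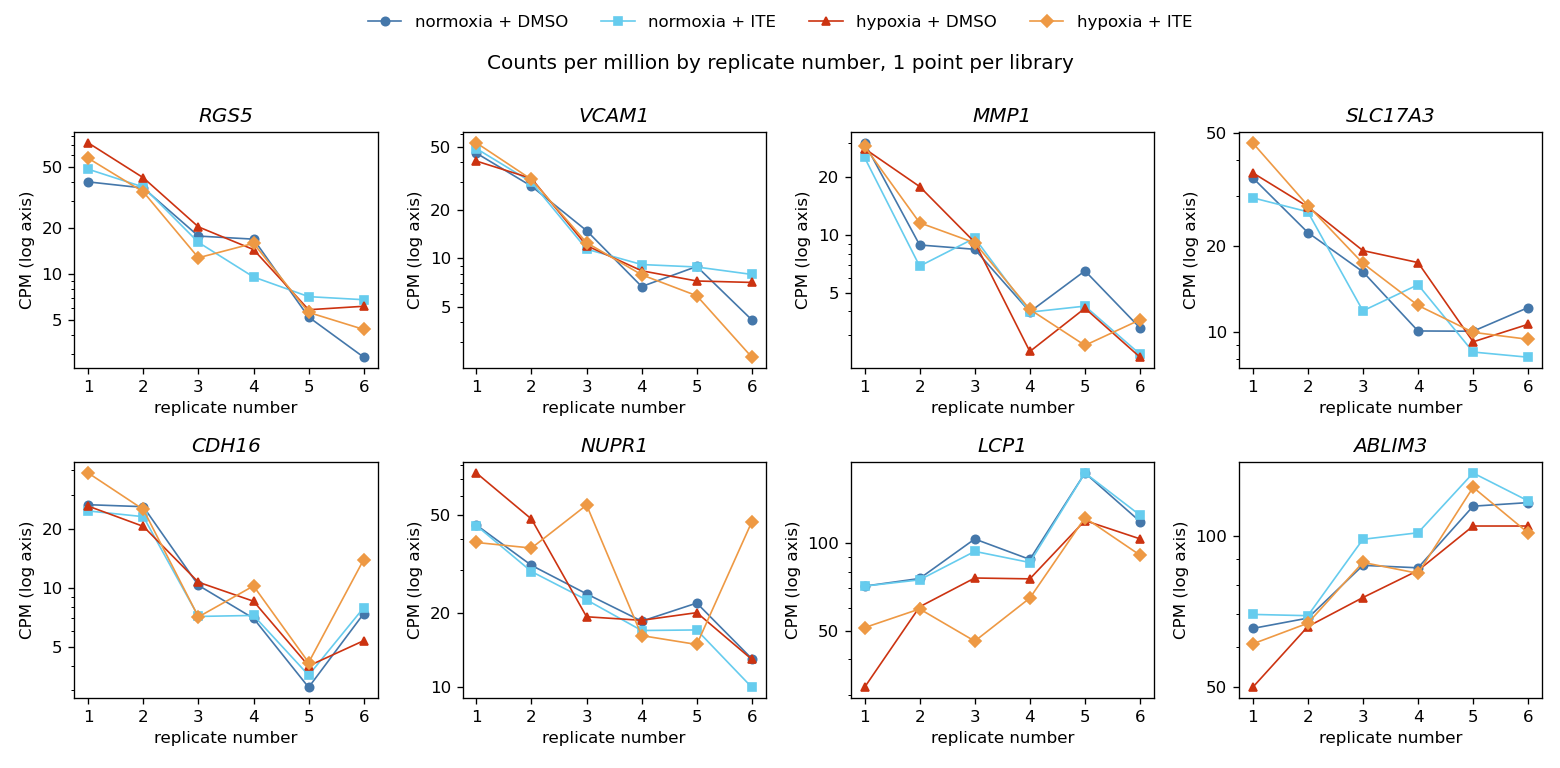
CPM (log axis) of 8 genes by replicate number, with 1 point per library and 1 colour and marker per treatment group, the lines only joining a group's libraries. RGS5, VCAM1, MMP1 and SLC17A3 lie lower at numbers 5 and 6 than at 1 in all 4 groups, CDH16 is lowest at number 5, NUPR1 lies lower at numbers 5 and 6 except in hypoxia + ITE replicate 6 at 47.0 CPM, and LCP1 and ABLIM3 lie higher.

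At number 1, *VCAM1* lay between 40.6 and 52.8 CPM in all 4 groups. Over the 6 numbers its levels were 45.5, 28.3, 14.9, 6.67, 8.91 and 4.12 CPM in normoxia + DMSO and 52.8, 31.2, 12.6, 7.90, 5.84 and 2.41 CPM in hypoxia + ITE. All 12 low-numbered libraries, at 11.4 CPM or more, lay above all 12 high-numbered ones, at 9.16 CPM or less, and the log2 fold change was -2.04 (SE 0.255, edgeR adjusted p = 0.000162). *MMP1* also separated without overlap, with 6.88 to 30.2 CPM at the low and 2.31 to 6.50 CPM at the high numbers (log2 fold change -2.06, SE 0.268, edgeR adjusted p = 0.000174). Its highest value in each group was at number 1, between 25.4 and 30.2 CPM. *MMP1* shares exon bases with *WTAPP1*, another counted gene, so some of its reads may not have been assigned. Replicate number took 94.8% of the sum of squares of *RGS5* and treatment group 1.17%, and the shares were 93.1% and 1.24% for *VCAM1*, whereas the medians over all genes tested were 20.9% for number and 15.1% for group, number having the more degrees of freedom.

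*NUPR1* encodes a small chromatin-associated stress protein (chromosome 16, 28544029 to 28550329, minus strand) induced by the integrated stress response. Its level went from 45.5 to 13.01 CPM between numbers 1 and 6 in normoxia + DMSO, from 45.3 to 9.95 CPM in normoxia + ITE and from 74.2 to 12.9 CPM in hypoxia + DMSO. In hypoxia + ITE it read 38.7, 36.7, 54.9, 16.2, 14.9 and 47.0 CPM, so numbers 3 and 6 of that group broke the pattern. Low and high numbers differed by -1.07 on the log2 scale (SE 0.206, edgeR adjusted p = 0.00930). Within groups, and over 8 relations tested for *RGS5* and *NUPR1* together, the rank correlation of *RGS5* with number was -1 in both normoxia groups and -0.943 in both hypoxia groups (exact permutation over 720 orders, adjusted p = 0.0111 and 0.0222; Pearson r between -0.980 and -0.963, adjusted p = 0.00889 in each). Without numbers 1 and 6, r remained between -0.987 and -0.904. The adjustment covers these 8 relations only. It does not allow for the choice of *RGS5* and *NUPR1* from all genes tested, made with earlier results of these data known. The permutation p-values of both genes are therefore a description and cannot serve as a test of them. For *NUPR1* the rank correlation was -0.943 in both normoxia groups (exact permutation adjusted p = 0.0222), -0.829 in hypoxia + DMSO (exact permutation adjusted p = 0.0667) and -0.143 in hypoxia + ITE (exact permutation adjusted p = 0.803). Pearson r for *NUPR1* was -0.940, -0.975, -0.911 and -0.284 in the same order (exact permutation adjusted p = 0.0111, 0.00889, 0.0159 and 0.539), and without numbers 1 and 6 it was -0.779, -0.943, -0.751 and -0.798.

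Across all genes, 67 passed an adjusted p of 0.05 between low and high numbers, 58 of them lower (0.497% of genes tested) and 9 higher (0.0771%) at the high numbers (edgeR quasi-likelihood test, group as a factor). The gene just inside the threshold was *TMEM40* (adjusted p = 0.0397) and the first outside it *ADAM28* (adjusted p = 0.05). A slope on the 6 numbers called 359 genes, 226 falling (1.94%) and 133 rising (1.14%), and a test of any difference among the numbers called 200 (1.71%). All 67 had the same direction in all 4 groups, which the pooled test favours. Over all genes tested, a lower mean at the high numbers in all 4 groups was seen in 9.52% and a higher mean in all 4 in 10.9%. Without overlap in any of the 4 groups there were 8 genes lower (0.0686%), *APOL3*, *CASC4*, *EPB41L4A*, *IGFBP3*, *MACC1*, *MMP1*, *SLC7A7* and *VCAM1*, and 2 higher (0.0171%), of which *DDX24* passed the pooled test. A rank correlation of -0.8 or lower in all 4 groups was reached by 18 genes (0.154%), and of 0.8 or higher by 3 (0.0257%), *ABLIM3*, *ALOX5AP* and *DDX24*. Without hypoxia + ITE replicate 6 the counts were 191 for low against high numbers (50 higher, 141 lower, with all 67 kept) and 636 for the slope (333 of the 359 kept), and without the 2 shallow libraries as well, 217 and 776. Without replicate number 5 they were 6 and 118. Same-numbered libraries may not be independent, and with numbers as the units there are 3 against 3: that test called 0 genes (limma on the means per number, 947 at an unadjusted p under 0.05, adjusted p = 0.0857 for *RGS5*), while a slope over the 6 means called 199, of which 135 were among the 359.

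The slope could also be read in parts of the series that share no library, although the same 6 numbers run through each part. Same-numbered libraries may not be independent, and the p-values below assume that they are. If they are not, the parts are not independent readings. The 12 normoxia libraries alone called 647 genes and the 12 hypoxia libraries alone 8, of which 6 were called in both: *MMP1*, *RGS5*, *SLC17A3*, *SLC7A7*, *VAV3* and *VCAM1*. DMSO libraries alone called 51 and ITE libraries alone 20. For *RGS5* the slope was -0.68 log2 per number in normoxia (edgeR adjusted p = 9.06e-08), -0.76 in hypoxia (edgeR adjusted p = 2.79e-05), -0.76 in DMSO (edgeR adjusted p = 2.67e-06) and -0.68 in ITE libraries (edgeR adjusted p = 0.000152). Leaving out each number in turn, 62 of the 359 were called every time, 55 falling and 7 rising.

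**Figure D2:**
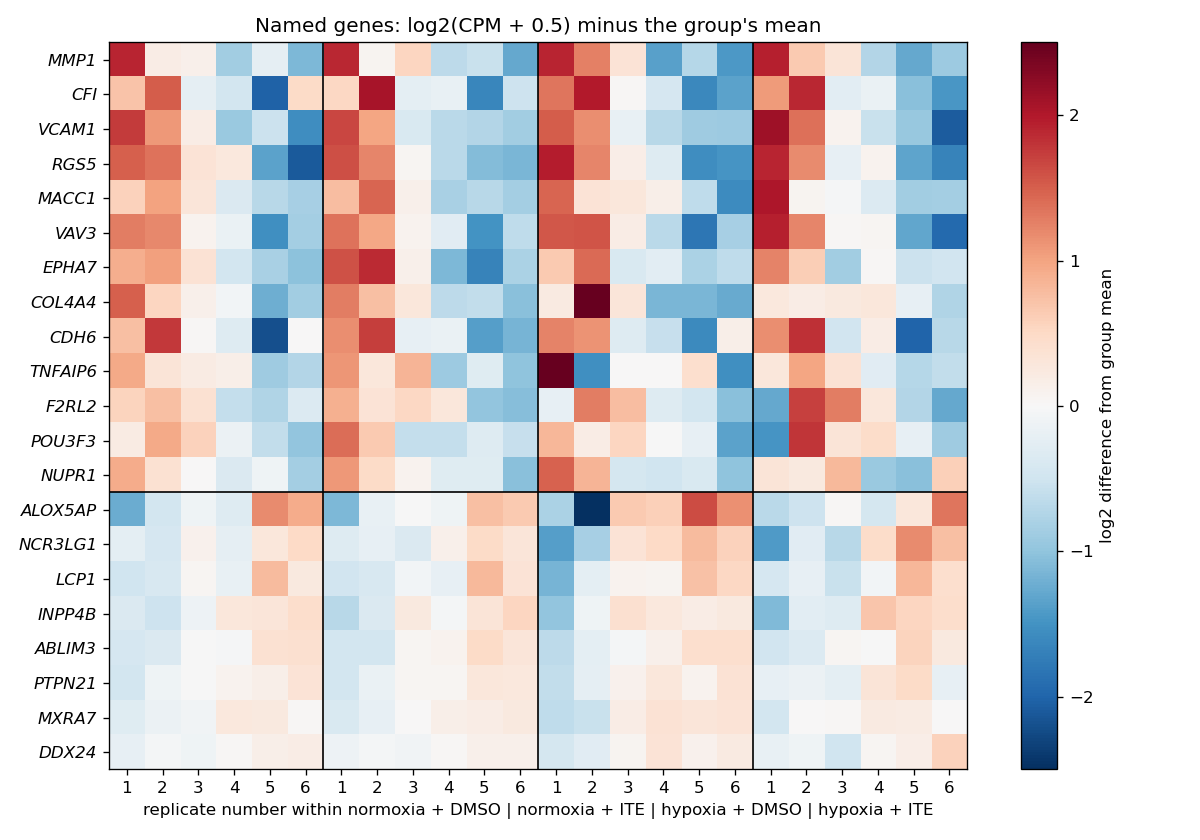
Difference of log2(CPM + 0.5) from the mean of the treatment group for 21 genes (rows) in 24 libraries (columns, numbers 1 to 6 within each group between black lines). The 13 upper genes run mostly from red at low to blue at high numbers, with single exceptions such as NUPR1 in hypoxia + ITE replicate 6, and with CDH6 and VAV3 at their lowest at number 5 in most groups, and the 8 lower genes run from blue to red with a narrower range.

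*CFI*, complement factor I, had 1.74 to 15.1 CPM at the low and 0.141 to 3.17 CPM at the high numbers (log2 fold change -2.05, edgeR adjusted p = 0.00930). It was highest at number 2 in all 4 groups. *VAV3*, a guanine nucleotide exchange factor, went from 30.5 ± 18.6 CPM (SD, n = 12) to 7.33 ± 4.04 CPM (SD, n = 12) (log2 fold change -1.93, edgeR adjusted p = 0.000377). *MACC1*, a regulator of the hepatocyte growth factor receptor gene, *EPHA7*, an ephrin receptor, *COL4A4*, a basement membrane collagen chain, *TNFAIP6*, a hyaluronan-binding protein, *F2RL2*, a thrombin receptor, and *POU3F3*, a transcription factor of nephron development, differed by -2.01, -1.86, -1.82, -1.69, -1.66 and -1.59 on the log2 scale. All 6 were low, with means of 1.08 to 2.49 CPM over all libraries, and in the shallowest library 3 counts equal 4.12 CPM, so single values of these genes rest on few reads. *COL4A4* read 15.1 CPM there and at most 3.68 CPM in any other library. *F2RL2* shares exon bases with *IQGAP2*.

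Kidney cadherins *CDH6* and *CDH16* were the members called on the list of renal tubule and carcinoma markers. Of its 10 tested genes, 2 fell and 0 rose between low and high numbers and likewise for the slope, against 0.497% and 1.94% of all genes, and 5 fell for the slope without hypoxia + ITE replicate 6. A lower mean at the high numbers in all 4 groups was seen for 3 of the 10 and a higher one for 1, beside 9.52% and 10.9% of all genes tested. The list's median slope was -0.04 log2 per number, beside 0.00168 over all genes. *CDH16*, kidney-specific cadherin (chromosome 16, 66942025 to 66952820), stood at 26.6, 26.0, 10.3, 7.002, 3.11 and 7.40 CPM over numbers 1 to 6 of normoxia + DMSO, and at 38.7, 25.2, 7.12, 10.2, 4.17 and 14.0 CPM in hypoxia + ITE (log2 fold change -1.59, edgeR adjusted p = 0.00281). *CDH6*, a cadherin of the developing nephron, had means per number of 16.6, 24.4, 6.34, 6.48, 1.87 and 5.95 CPM (log2 fold change -1.73, edgeR adjusted p = 0.0113). Both were lowest at number 5 and higher again at 6, although neither rise passed the test (edgeR adjusted p = 0.0645 for each).

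Some transporters fell as well, named here after their values were seen and so no sample of transporters. *SLC17A3*, an organic anion and phosphate transporter, read 34.8, 22.3, 16.2, 10.1, 10.0 and 12.2 CPM in normoxia + DMSO and 46.1, 27.8, 17.4, 12.4, 9.95 and 9.40 CPM in hypoxia + ITE, with a slope of -0.40 log2 per number (SE 0.0355, edgeR adjusted p = 3.65e-08). The slopes were -0.40 for *SLC22A2*, the renal organic cation transporter, -0.36 for *SLC7A7*, a light subunit of the dibasic amino acid exchanger, -0.46 for *SLC3A1*, the heavy subunit of cystine transport, and -0.32 for *ABCC2*, an apical export pump (largest edgeR adjusted p of the 4 = 0.000248). This was not general to transporters: of 175 tested genes with SLC symbols, 8 fell and 1 rose for the slope, beside 1.94% and 1.14% of all genes tested. Without hypoxia + ITE replicate 6, 10 fell and 4 rose. Of 7 tested SLC22 genes, *SLC22A2* was the 1 called, and without that library *SLC22A4* was called as rising (slope 0.21, edgeR adjusted p = 0.0387). *CLDN2*, a claudin of the leaky proximal tubule, had 270, 251, 109, 86.1, 55.6 and 136 CPM as means per number, so that most of its change lay between numbers 2 and 3 (log2 fold change -1.20, edgeR adjusted p = 0.00274), and it rose again from 5 to 6 (1.26, edgeR adjusted p = 0.00276). *DPP4*, a brush border peptidase, fell by 0.21 on the log2 scale per number (edgeR adjusted p = 0.000312).

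Members of the TGF-beta list went both ways. Of 12 tested, 4 fell and 2 rose for the slope, and 1, *TGFBI*, was called between low and high numbers. Among all genes tested, 1.94% fell and 1.14% rose for the slope, and 0.497% were called lower at the high numbers. *TGFBI*, an extracellular matrix protein, lay at 539 to 1120 CPM at the low and 477 to 741 CPM at the high numbers (log2 fold change -0.46, SE 0.0915, edgeR adjusted p = 0.0113). The other 3 that fell, *ID1*, *ID2* and *ID3*, are dominant negative partners of basic helix-loop-helix factors. The fourth member of that family, *ID4*, fell as well, with slopes of -0.22, -0.19, -0.17 and -0.35 log2 per number (largest edgeR adjusted p of the 4 = 0.0268), and all 4 had a lower mean at the high numbers in each group, as did 9.52% of all genes tested. The 2 that rose were *LTBP2* and *TAGLN*. *JAG1*, a Notch ligand, had means of 102, 104, 48.8, 41.2, 46.1 and 43.7 CPM, with almost its whole change between numbers 2 and 3 (-1.10 on the log2 scale, edgeR adjusted p = 0.00694). Of 11 tested Notch ligands, receptors and targets, *JAG1* and *NRARP* fell and none rose for the slope.

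Few interferon-stimulated and NRF2 genes passed, and those that did fell. *IFIT1* and *OAS1*, both antiviral effectors, fell for the slope, by 0.22 and 0.27 on the log2 scale per number (edgeR adjusted p = 0.0290 and 0.0232), none of 23 tested interferon genes rose, and the list's median slope was -0.01 log2 per number. Of 19 tested NRF2 antioxidant genes, *ABCC2*, *AKR1B10* and *AKR1C3* fell and none rose, the last 2 members of a family of close paralogues among which reads may be divided. The median slope of the 19 was 0.000176 log2 per number. For both lists the shares among all genes tested were 1.94% falling and 1.14% rising.

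Genes that rose were fewer and moved less. *ABLIM3*, an actin-binding LIM protein, stood at 65.5, 68.7, 87.5, 86.5, 115 and 117 CPM in normoxia + DMSO and at 49.95, 66.03, 75.5, 85.4, 105 and 105 CPM in hypoxia + DMSO, with means of 72.3 ± 13.4 and 106 ± 15.9 CPM (SD, n = 12 each) at low and high numbers (log2 fold change 0.55, SE 0.0972, edgeR adjusted p = 0.00314). *LCP1*, the actin bundling protein L-plastin, went from 68.0 ± 19.8 to 112 ± 35.1 CPM (SD, n = 12 each; log2 fold change 0.73, SE 0.144, edgeR adjusted p = 0.0112), highest at number 5 in all 4 groups. *ALOX5AP*, the activating protein of leukotriene synthesis, *NCR3LG1*, a ligand of a natural killer cell receptor, and *INPP4B*, a phosphoinositide phosphatase, differed by 1.07, 0.84 and 0.66 on the log2 scale. *ALOX5AP* had 0 counts in the shallowest library and its highest value, 22.4 CPM, in hypoxia + ITE replicate 6. *PTPN21*, a tyrosine phosphatase, *MXRA7*, a matrix remodelling associated gene, and *DDX24*, an RNA helicase, differed by 0.41, 0.40 and 0.35, and *PTPN21* and *DDX24* share exon bases with *SPATA7* and *OTUB2*.

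A few NF-kappaB genes rose. Of 18 tested genes of the NF-kappaB and cytokine list, 3 rose for the slope (*ICAM1*, *RELB* and *BIRC3*), 0 fell, 8 had a higher mean at the high numbers in all 4 groups and 0 a lower one, and the median slope was 0.06 log2 per number. Over all genes tested, 1.14% rose and 1.94% fell for the slope. A higher mean in all 4 groups was seen in 10.9% and a lower one in 9.52%. Of the list, 2 genes rose and 0 fell for the slope without hypoxia + ITE replicate 6. None was called between low and high numbers (the smallest p was that of *ICAM1*, log2 fold change 0.39, edgeR adjusted p = 0.117). Of 17 regulators and subunits of the pathway, a group chosen after values were seen, *BIRC3*, *RELB*, *TNIP1* and *TRAF1* rose and 0 fell. *RELB* read 149 CPM in hypoxia + ITE replicate 6 and 35.8 to 76.8 CPM in all others, and without that library its slope was not called (edgeR adjusted p = 0.0787). *BIRC3*, an inhibitor of apoptosis, had means per number of 151, 184, 197, 182, 268 and 235 CPM (slope 0.14, edgeR adjusted p = 0.00211). *VCAM1*, which is in neither of these groups but belongs to the textbook targets of the same factor, moved the opposite way. The windows of 300 bases around the RefSeq gene start (GRCh38.p14) of *VCAM1* (chr1:100719492-100719791, plus strand) and *BIRC3* (chr11:102317234-102317533, plus strand) are shown because both hold an NF-kappaB motif, searched as 1 pattern of letters on both strands and set in capitals, while the genes moved in opposite directions.
VCAM1: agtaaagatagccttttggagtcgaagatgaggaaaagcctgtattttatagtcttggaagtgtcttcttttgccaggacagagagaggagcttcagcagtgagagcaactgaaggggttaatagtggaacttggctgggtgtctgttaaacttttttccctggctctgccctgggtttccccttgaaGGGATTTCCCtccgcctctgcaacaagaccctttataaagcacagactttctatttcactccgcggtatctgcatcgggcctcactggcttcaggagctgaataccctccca
BIRC3: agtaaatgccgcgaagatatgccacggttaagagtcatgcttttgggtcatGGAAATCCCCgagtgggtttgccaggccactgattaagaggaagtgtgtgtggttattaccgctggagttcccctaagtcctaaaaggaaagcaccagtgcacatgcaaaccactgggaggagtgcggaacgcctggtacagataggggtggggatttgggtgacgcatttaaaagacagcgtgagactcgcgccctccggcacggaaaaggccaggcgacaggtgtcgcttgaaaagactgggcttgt
The match starts 62 bases before the gene start in *VCAM1* and 199 before it in *BIRC3*, where it reads on the other strand. The motif occurred in 7.23% of 166 falling and 8.08% of 99 rising genes with a window, beside 6.67% of 8690 tested genes and 5.67% of all 27305 windows. Another motif, TGANTCA of AP-1, searched the same way, was held by 8.43% of falling, 4.04% of rising and 4.27% of tested genes and 7.76% of all windows.

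Several contractile genes rose, beside 1.14% of all genes tested that rose and 1.94% that fell for the slope. Of 10 tested actin-binding contractile genes, a group chosen after values were seen, *TAGLN*, *CNN1*, *MYL9*, *ACTN1* and *CSRP1* rose for the slope and 0 fell, but without hypoxia + ITE replicate 6 the counts were 4 and 1, and *TAGLN* was no longer called (edgeR adjusted p = 0.0551). *CNN1*, calponin, read 1369 CPM in that library and 258 to 485 CPM in all others. The pericyte and smooth muscle list held *RGS5* falling and *TAGLN* and *CNN1* rising among 7 tested, and without hypoxia + ITE replicate 6 it held 2 falling and 1 rising. *ACTA2*, smooth muscle actin, was not called with all libraries (slope -0.10, edgeR adjusted p = 0.380) and fell without that library (slope -0.17, edgeR adjusted p = 0.0422), where it read 19.3 CPM. *KCNJ8* had no count in any library, and *NOTCH3* and *MYH11* had a median of 0 CPM. The summed level of the list ran from 1024 to 1994 CPM at low and from 1417 to 4356 CPM at high numbers.

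Lists tied to the treatments and to growth showed few calls, and of all genes tested 1.94% fell and 1.14% rose for the slope. Of 27 tested HIF targets, *ADM* and *ENO2* rose for the slope and none fell, and of 12 aryl hydrocarbon receptor targets *ASB2* rose and none fell. Without hypoxia + ITE replicate 6, *CYP27A1* of the latter list, a sterol hydroxylase, also fell (slope -0.18, edgeR adjusted p = 0.0135), and 3 HIF targets rose. For 24 cholesterol genes, 19 cytosolic tRNA synthetases, 26 DNA replication genes, 78 ribosomal proteins, 72 respiratory chain genes, 16 p53 targets, 25 lysosome genes, 17 genes of the unfolded protein response, 12 heat shock proteins, 15 clock genes, 9 glucocorticoid targets, 8 histone genes and 5 metallothionein and zinc genes the edgeR counts for the slope were 0 and 0. With that library left out, 1 cholesterol, 1 glucocorticoid, 2 replication and 2 clock genes rose, and 1 heat shock, 1 lysosome and 2 ribosomal protein genes fell. *INSIG1*, a sterol-responsive brake on cholesterol synthesis, did not pass between low and high numbers (log2 fold change 0.26, edgeR adjusted p = 0.498) or for the slope (0.06, edgeR adjusted p = 0.417). Without hypoxia + ITE replicate 6 its slope passed (0.10, edgeR adjusted p = 0.0299) and the difference did not (0.35, edgeR adjusted p = 0.0525). It was highest at number 5 in each group, from 259 to 366 CPM. Single genes passed for the slope among 24 integrated stress response (*STC2* rose, *NUPR1* fell), 26 mitosis (*PLK1* fell), 19 YAP/TAZ-TEAD (*CTGF* fell), 16 immediate early (*EGR1* fell) and 11 fatty acid genes (*FADS1* rose), and among 17 matrix genes *P4HA2* rose and *SPARC* and *LOX* fell. Of the marker lists of other cell types, 1 gene each was tested and not called: *ESAM* of 7 endothelial, *CD68* of 6 leukocyte and *SERPINA1* of 7 hepatocyte markers.

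**Figure D3:**
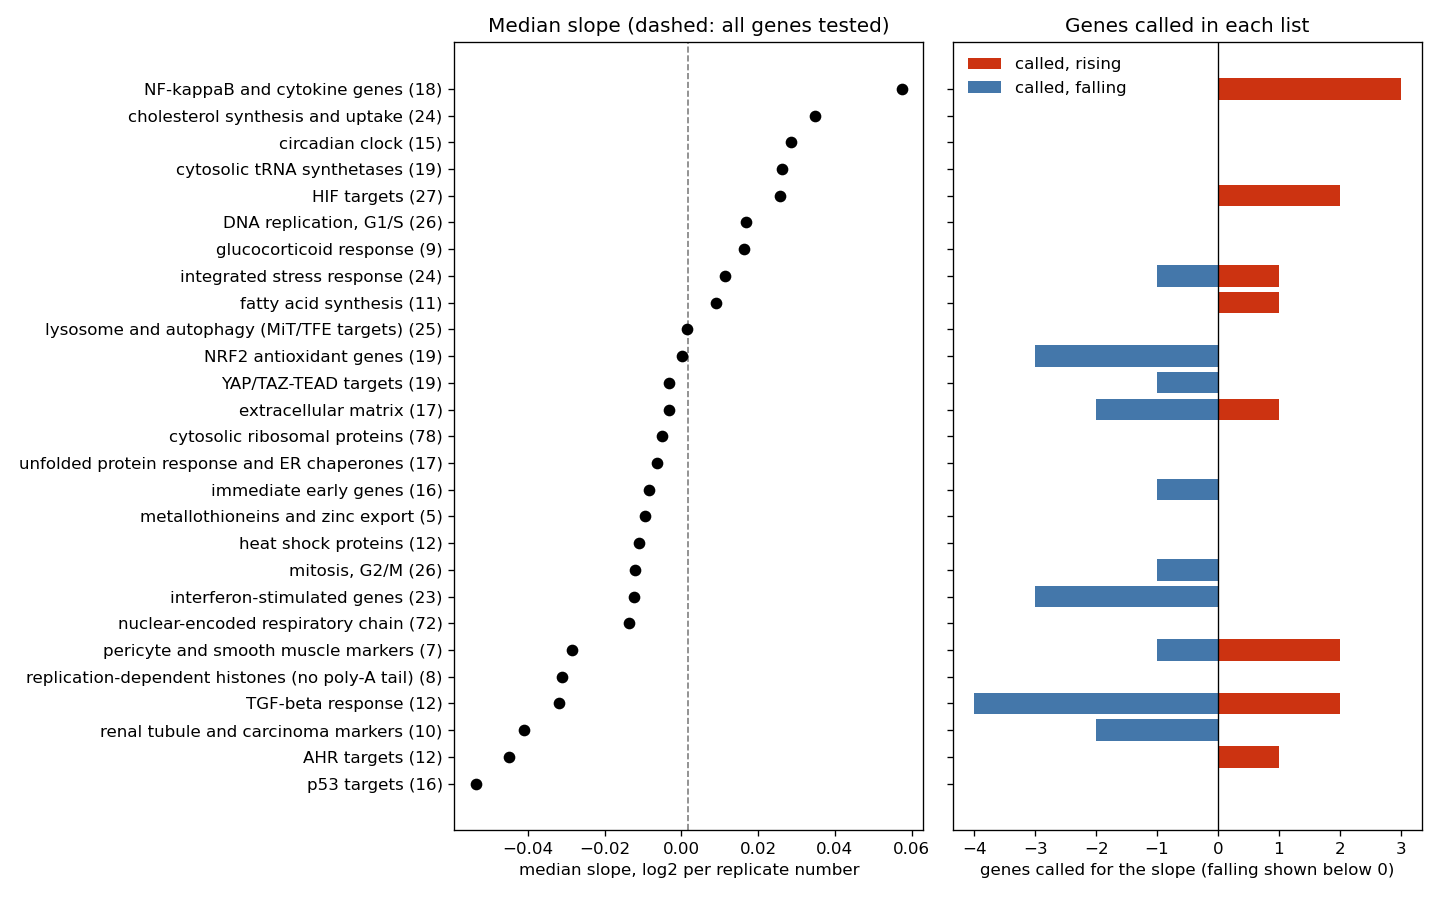
Median slope on replicate number (left, log2 per number, dashed line at the median of all genes tested) and number of genes called for the slope (right, rising to the right and falling to the left of 0) for lists with 5 or more tested genes, whose number stands in brackets. NF-kappaB and cytokine genes have the highest median and 3 rising genes, and the TGF-beta list has 4 falling and 2 rising genes.

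The difference did not lie evenly over the numbers. Between adjacent numbers, edgeR called 3 genes from 1 to 2 (1 higher, 2 lower), 9 from 2 to 3 (all lower), 0 from 3 to 4 (217 at an unadjusted p under 0.05), 96 from 4 to 5 (36 higher, 60 lower) and 2 from 5 to 6 (both higher). Without hypoxia + ITE replicate 6 these counts were 8, 19, 1, 326 and 4. The 226 falling genes had median steps of -0.10, -0.31, -0.05, -0.34 and -0.02 on the log2 scale in the same order. For *RGS5* the steps from 2 to 3 and from 4 to 5 passed. Libraries of different groups that shared a number had deviations from their group means that correlated at 0.114 on average (36 pairs, from -0.187 to 0.438, 19 over 0.1), against -0.0195 for 180 pairs with other numbers, and the mean was highest within number 5 (0.276) and slightly negative within number 3 (-0.0177). Pairs of numbers 1 and 2 (0.0837) and of 5 and 6 (0.115) also correlated positively, and pairs of 1 or 2 with 5 negatively (-0.151 and -0.152).

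**Figure D4:**
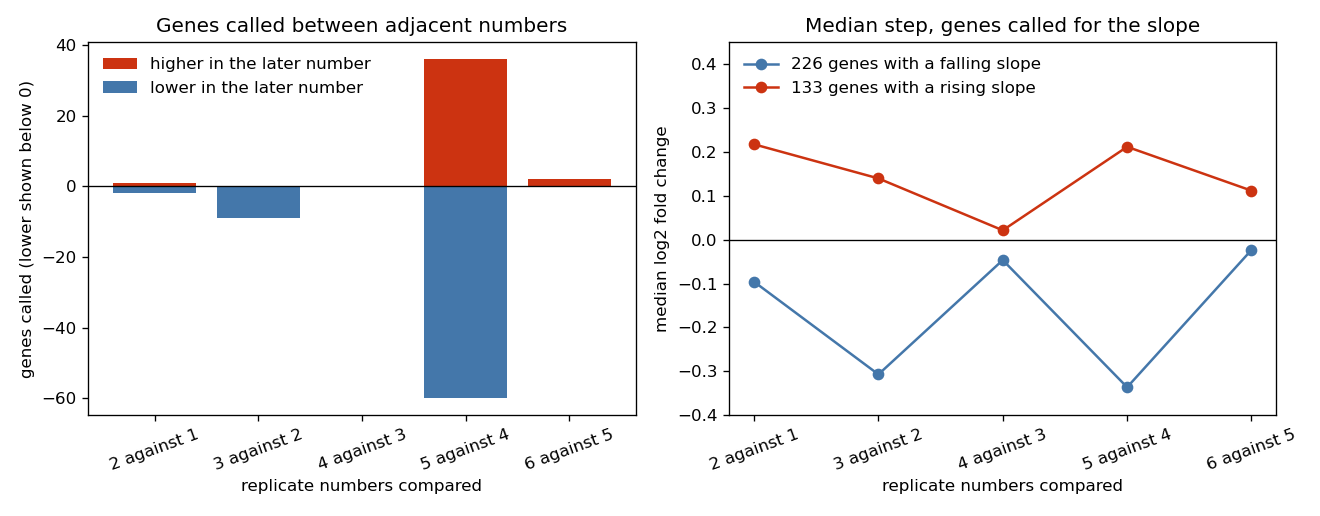
Left, genes called between adjacent replicate numbers (edgeR, adjusted p under 0.05), with genes lower in the later number drawn below 0. Right, median log2 step of the 226 falling and 133 rising genes, which were chosen by their slope, with steps of -0.31 and -0.34 for the falling genes from 2 to 3 and from 4 to 5.

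**Figure D5:**
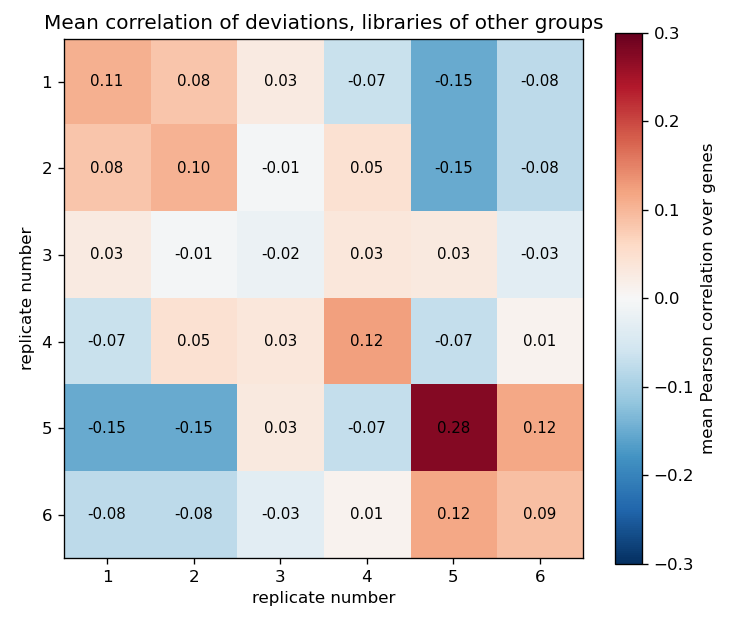
Mean correlation over genes between the deviations of libraries from different treatment groups, by the replicate numbers of the libraries. Number 5 correlates with itself across groups at 0.276 and with numbers 1 and 2 at about -0.15.

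The step from 4 to 5 held most of the calls between adjacent numbers, 96 of 11666 genes tested, and its genes are named after their values were seen. They included *RGS5*, *VAV3*, *CDH6*, *CDH16*, *CFI* and *TSPAN9*, which were also called from 2 to 3. Among those higher at number 5 were *IL11*, *IL8* and *IL6*, all cytokines, with log2 steps of 1.12, 0.92 and 0.81, and *ASNS*, *PCK2*, *ATF3*, *WARS* and *INHBE* of amino acid metabolism and the integrated stress response, with steps of 0.69, 0.63, 0.85, 0.56 and 1.57. *NUPR1*, of the same response, was not called at this step. For any difference among the numbers, edgeR called 4 of 24 tested integrated stress response genes and 1 of 19 tRNA synthetases. The share over all genes tested was 1.71%. *ASNS*, asparagine synthetase, had means per number of 85.2, 68.7, 76.7, 65.4, 106 and 81.4 CPM, so that number 5 stood above the rest and there was no slope (edgeR adjusted p = 0.526). Among those lower were *CD24* (-0.92), *ALDH1A1* (-0.86), *DAB2* (-1.11), *PDZK1* (-0.72), *SLC34A2* (-0.89) and *FOLR1* (-1.32), genes of the tubule surface and of endocytosis or retinal metabolism, and the receptors *FGFR2* (-1.26) and *FGFR3* (-1.04). *CD24* had means of 1022, 1047, 867, 953, 504 and 679 CPM over the 6 numbers.

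Whether the difference between low and high numbers depended on treatment was tested directly, and no gene passed: edgeR called 0 genes for any difference among the 4 groups (313 at an unadjusted p under 0.05), 0 between hypoxia and normoxia (1104) and 0 between ITE and DMSO (107), and DESeq2 called 0 in each. Within single groups edgeR called 0 genes in each of the 4 (262, 270, 635 and 1692 at an unadjusted p under 0.05, in the order given above). The 12 normoxia libraries called 593 genes between low and high numbers (245 higher, 348 lower) and the 12 hypoxia libraries 0 (831 at an unadjusted p under 0.05, and 12 called by DESeq2). The hypoxia libraries include both shallow libraries and hypoxia + ITE replicate 6. Leaving out number 1, 2 or 6 from both hypoxia groups, 1 number at a time, kept the edgeR count at 0. Leaving out only the doubted libraries was not tested for this count. Of 343 genes lower at high numbers in normoxia and also tested in hypoxia, 65.3% were lower there, beside 45% of all genes, and of 244 higher ones 51.6% were higher there, beside 55% of all genes. The treatment responses themselves were seen at both low and high numbers: ITE raised *CYP1B1*, an aryl hydrocarbon receptor target, by 2.60 and 2.39 on the log2 scale in normoxia, and hypoxia raised *NDRG1*, a HIF target, by 3.22 and 3.27 with DMSO. Of the 359 genes with a slope, 46 (12.8%) also differed with hypoxia and 7 (1.95%) with ITE in the same edgeR fit, which are 6.37% and 31.8% of the 722 and 22 genes called for those treatments. The 7 were *ARMC9*, *ASB2*, *CTGF*, *PLEKHG4B*, *STAT4*, *STC2* and *WNT7B*. Of all 11666 genes tested, treated or not in their response, 1.94% had a falling and 1.14% a rising slope.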

How the data were processed

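PolyA+ RNA of 24 RCC4+VHL cultures was sequenced as paired ends from directional libraries. Per the study's methods and submitters' processing notes, the authors trimmed adaptors (Trim Galore 0.3.3), aligned reads to GRCh37 (HISAT2), removed fragments without a unique place (Picard 2.0.1) and deposited a table of raw counts per gene for each library (HTSeq 0.5.4p3, intersection-strict mode, UCSC genes), in which reads over more than 1 gene are dropped. The strand setting is not given in the sources used here, so overlapping and antisense genes are uncertain.

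The tables were joined over 23106 symbols, and 11666 genes with 10 or more counts in 12 or more libraries were tested with edgeR 4.0.16 (R 4.3.3; TMM factors, quasi-likelihood F-test, treatment group as a factor, Benjamini-Hochberg adjustment over all genes, threshold 0.05). Terms were low (1 to 3) against high (4 to 6) numbers, the number as a slope, the number as a 6-level factor, and products with group, oxygen or ITE. CPM were computed from TMM-scaled library sizes. limma 3.58.1 and DESeq2 1.42.0 served as alternatives, and the script was tested on simulated data. The library measures were tested by 100000 permutations within groups. GC content and length came from the longest GENCODE transcript for 10590 genes (90.8%), and gene positions from the GENCODE annotation on GRCh37.

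Groups and numbers came from the sample titles. The members and gene lists were chosen with earlier results of these data known. Genes were named by rule: *RGS5*, *NUPR1* and *INSIG1*, the 12 largest changes per direction at a mean of 1 CPM or more (8 were higher), and per list up to 4 called genes or the 1 with the smallest p; all others, and the symbol families, were named after their values were seen. Nothing says that same-numbered libraries share a culture, and p-values over 24 libraries assume that they do not. Some items are not reported here.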

Additional observations from a re-analysis of the deposited data

Results flagged for a closer look

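In groups of 6 libraries, a value was singled out where its gap to the nearest other value exceeded Dixon's 95% critical share of the group's range. Chance alone singles out about 5% of groups, or 1 in 20, and 15 of 112 groups were singled out. Total counts were highest in normoxia + ITE replicate 5 (48357647), hypoxia + DMSO replicate 5 (37995687) and hypoxia + ITE replicate 4 (87404330), and normoxia + ITE replicate 5 had the most genes with a count (14600). The deviations of hypoxia + ITE replicate 6 correlated with GC content at 0.662, far above the rest of the group. *INSIG1* was highest in normoxia + DMSO replicate 5 (259 CPM). *MMP1* was far higher in replicate 1 than in any other library of normoxia + DMSO (30.2 CPM), normoxia + ITE (25.4 CPM) and hypoxia + ITE (29.0 CPM). *CFI* was high in normoxia + ITE replicate 2 (12.8 CPM), *MACC1* in hypoxia + ITE replicate 1 (6.69 CPM), *COL4A4* in hypoxia + DMSO replicate 2 (15.1 CPM), *TNFAIP6* in hypoxia + DMSO replicate 1 (8.21 CPM), *POU3F3* in hypoxia + ITE replicate 2 (4.28 CPM) and *ALOX5AP* in hypoxia + ITE replicate 6 (22.4 CPM). The *MACC1* and *COL4A4* values lie in the 2 libraries with the fewest counts, 1357702 and 770094.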

How the results depend on the processing

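Low against high numbers called 67 genes, and 71 with DESeq2's size factors in edgeR, 58 without TMM, 74 with edgeR's own filter, 82 with limma-voom and 59 with depth as a covariate. A replicate block by number, as a random effect in limma-voom, gave 56 for low against high numbers and 387 for the slope (correlation within number 0.0241 and -0.00915), and is not a fixed block because number is the factor under study. The correlation is 1 small value shared by all genes, so this block could change the counts little and cannot show that single genes are independent within a number. The data pair same-numbered libraries only in part. Counts moved by over 1.5 times with DESeq2 (199, and 765 for the slope, 597 for any number, 925 in normoxia and 12 in hypoxia libraries), without a filter (101), with quality weights (693), with GC and length offsets (147), with number means (0, and 199 for the slope) and in DMSO or ITE libraries alone (0 each, 860 and 498 at an unadjusted p under 0.05). The slope alone in normoxia, hypoxia, DMSO and ITE libraries called 647, 8, 51 and 20 genes, and in hypoxia without hypoxia + ITE replicate 6, 17.

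Leaving out 1 number gave 6 (number 5) to 168 (number 4) for low against high numbers, 118 (number 5) to 416 (number 6) for the slope, 30 (number 5) to 363 (number 6) for any number, 69 (number 2) to 972 (number 3) in normoxia and 0 to 7 (number 3) in hypoxia libraries. Leaving out 1 library gave 38 (normoxia + ITE replicate 1) to 191 (hypoxia + ITE replicate 6), with 40 without normoxia + ITE replicate 5. Within groups it gave 0 to 88 in hypoxia + DMSO (without replicate 3), 0 to 332 in hypoxia + ITE (without replicate 4), 0 to 1 in normoxia + ITE (without replicate 3) and 0 in normoxia + DMSO; normoxia + ITE fitted alone gave 24. These slopes in part of the libraries, the slope over number means and the adjacent steps were added after seeing the data, as were the next settings. Leaving out hypoxia + ITE replicate 6 gave 636 for the slope, 461 for any number and 8, 19, 1, 326 and 4 for the adjacent steps, and leaving out the 2 shallow libraries too gave 217, 776, 534 and 4, 21, 2, 402 and 22. The cause of these moves was not tested. Of 26 named genes under 43 settings, 1118 values were had, of which 0 changed direction and 254 missed the threshold. These genes were taken because the pooled test called them, and most settings reuse most of its libraries. A change of direction was therefore unlikely from the start, and its absence is no measure of stability. The tests by group, oxygen and ITE stayed at 0 under the settings run. All of this rests on 6 numbers.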

Other observations

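Genes of the primary cilium, a group chosen after values were seen, were not described above. Of 27 tested genes of intraflagellar transport and the Bardet-Biedl complexes, *BBS10*, *DYNC2LI1*, *IFT81* and *WDR19* fell with replicate number and 0 rose, 7 had a lower mean at the high numbers in all 4 groups and 0 a higher one, and the median slope was -0.04 log2 per number beside 0.00168 over all genes. Among all genes tested, 1.94% fell and 1.14% rose for the slope. A lower mean in all 4 groups was seen in 9.52% of them and a higher one in 10.9%. *DYNC2LI1*, a light intermediate chain of the retrograde motor, had means of 14.8, 10.2, 11.8, 8.34, 6.73 and 6.42 CPM over the 6 numbers (slope -0.24, SE 0.0493, edgeR adjusted p = 0.00479). Without hypoxia + ITE replicate 6, 3 of the group fell and 0 rose. Among 11 tested keratins *KRT33B* and *KRT34* rose, while *KRT18* was not called with all libraries (edgeR adjusted p = 0.933) and was called without hypoxia + ITE replicate 6 (edgeR adjusted p = 0.000594).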
